A study of Rattus norvegicus with 15 samples.

Results

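The fibrillar collagens and the proteins that fold and cross-link them were followed in the epididymal fat pad of the rat, a depot of visceral fat. The 10 genes were Col1a1, Col1a2, Col3a1, Col5a1, Col5a2, Col5a3, Lox, Loxl1, Loxl2 and Serpinh1. They were found as the probe sets that the platform annotation assigns to 1 of these genes alone, which gave 17 of 31042 probe sets, for 10 of 14217 genes so named. A probe set is a group of array probes against 1 transcript, and 1 Affymetrix RAE230_2 array was run per rat. The 15 animals were male Long-Evans rats from a private colony, shipped at 14 weeks of age, housed singly with free access to food and killed at 26 weeks. The diet-induced obese group (7 rats) had eaten a high fat/high sucrose diet since weaning, and the lean control group (8 rats) had eaten regular chow. Diet and body fat changed together, so the effects of the one and the other cannot be told apart. Rats are named by group and number, and there was no obese rat 4 among the arrays used here.

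Fibrillar collagens are the rope-like proteins that give tissue its tensile strength. Each molecule is a triple helix of 3 chains: type I joins Col1a1 and Col1a2 chains, type III is built of Col3a1 chains alone, and type V, from Col5a1, Col5a2 and Col5a3 chains, starts fibrils and limits their width. Serpinh1, also called Hsp47, is the chaperone of the endoplasmic reticulum that holds the newly folded helix. Outside the cell the copper enzymes Lox, Loxl1 and Loxl2 oxidise lysine residues, which then join neighbouring chains or, with Loxl1 in particular, elastin. In fat these proteins form the mesh around each fat cell, and they are made mainly by fibroblast-like stromal cells.

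Before any result, 1 pair of arrays needs naming: obese rat 1 and lean rat 7, though labelled as opposite groups, gave almost the same values. Their median absolute log2 difference over the probe sets tested was 0.09, against 0.19 to 0.36 for the other 104 pairs of arrays, and over the 17 member probe sets it was 0.04, against a lowest value of 0.15 among the other pairs. The labels do not settle which of these is mislabelled, if any. Each result is given for all 15 arrays and for 13 arrays, without this pair (6 obese and 7 lean rats). Values are MAS5 signals, the brightness the Affymetrix MAS5 program gives a probe set, and the 2% trimmed mean of an array was between 1500.34 and 1500.42 in each case. The number of arrays limits the precision. Log2 fold changes are obese minus lean on the scale log2(signal + 80.2), each with its standard error after the ± sign, and a probe set passed when its limma p, adjusted over all 18625 probe sets tested, was under 0.05. The tissue carried the defining markers of fat: Fabp4, the fatty acid binding protein of fat cells, read 137592 ± 44642 (SD, n = 6) among obese rats and 138854 ± 23755 (SD, n = 7) among lean rats of the 13.

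Of the 10 genes, 6 had a promoter in the RefSeq-based table of build GRCr8 (Col1a2, Col5a1, Col5a2, Col5a3, Loxl1 and Serpinh1). Stretches of 3 of them are printed, chosen for estimates on both sides of 0. These are the second type I chain and the chaperone, both with estimates above 0, and the type V chain with estimates below 0. Col1a1, which had the largest estimate, was not among the 6. Each reads 5′ to 3′ on the gene's strand in lower case, with the searched motifs in capitals.
Col1a2 (chr4:33518307-33518406, + strand, 250 to 151 bases before the start in the table): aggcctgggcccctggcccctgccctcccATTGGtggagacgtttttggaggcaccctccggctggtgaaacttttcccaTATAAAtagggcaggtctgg
Col5a2 (chr9:55090152-55090271, - strand, 120 to 1 bases before the start): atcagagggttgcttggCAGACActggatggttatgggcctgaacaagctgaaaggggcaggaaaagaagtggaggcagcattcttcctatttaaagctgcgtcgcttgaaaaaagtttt
Serpinh1 (chr1:163062991-163063020, - strand, 44 to 15 bases before the start): tttccaactTTCCAGAAGTTTCttaggaca

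In Col1a2 the capitals mark CCAAT on the opposite strand, the letters of the box bound by the factor NF-Y, and TATAAA, the TATA box. In Col5a2 they mark CAGACA, the letters of the CAGA box that Smad proteins bind. In Serpinh1 they mark a heat shock element, which is TTC, GAA and TTC with any pair of bases between them, the site of heat shock factor; the gene's older name is that of a heat shock protein. Searched on both strands over the 250 bases before each start, CCAAT was held by 34% of 33469 promoters and by 2 of the 6, Col1a2 and Col5a3. TATAAA was held by 12.9% and by 1 of the 6, Col1a2. CAGACA was held by 17.2% and by 2 of the 6, Col5a2 and Loxl1. GGGCGG, the GC box, was held by 30.5% and by 3 of the 6, Col5a1, Col5a3 and Serpinh1. The heat shock element was held by 0.663% and by 1 of the 6, Serpinh1. These matches describe letters and do not show that a factor bound there. None of these 5 motifs overlapped another in the 6 promoters. Col3a1 and Col5a2 are next to each other in the genome, with 0 genes listed between them.

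Col1a1, the main chain of type I collagen, was the one member that passed the test, on 13 arrays and not on all 15. Its brightest probe set, 1388116_at, rose, and on 13 arrays every obese rat lay above every lean rat. The other fibrillar chains with estimates above 0 (Col1a2, Col5a1, Col3a1, Col5a3) and the chaperone Serpinh1 did not pass. The estimates of Col5a2 were below 0, and the 95% intervals of the cross-linking enzymes all included 0.

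With 13 arrays, 1 of 16 member probe sets tested passed, against 1.01% of all probe sets tested (0.725% higher in obese rats). On all 15, limma passed 0 of 16, against 0% of all probe sets tested. At an unadjusted limma p under 0.05 there were 6 of 16 member probe sets (37.5%) in each comparison, all higher in obese rats. The share was 15.6% of all probe sets with 15 arrays and 17.8% with 13. In the same direction these shares of all probe sets were 6.74% and 7.59%. The 6 were both probe sets of Col1a1 and of Col1a2, 1369955_at of Col5a1 and 1371310_s_at of Serpinh1, so they do not stand for 6 separate genes. The median log2 fold change of the 16 was 0.18 with 15 arrays and 0.21 with 13, beside -0.04 in each for all probe sets. Estimates above 0 were seen for 14 of the 16 (87.5%) in each comparison, against 42.5% and 42.2% of all. Median centring of the arrays moved the median of all probe sets from -0.04 to 0.07 with 13 arrays, where 389 then passed (357 higher, 32 lower) in place of 189 (135 higher, 54 lower). The remaining member probe set, 1369009_at of Serpinh1, was below the filter on low signals, at 202.5 to 595 in obese and 188.2 to 480.2 in lean rats over 15 arrays, and was not tested. A second probe set of Serpinh1 stayed in, so all 10 genes were tested.

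**Figure D1:**
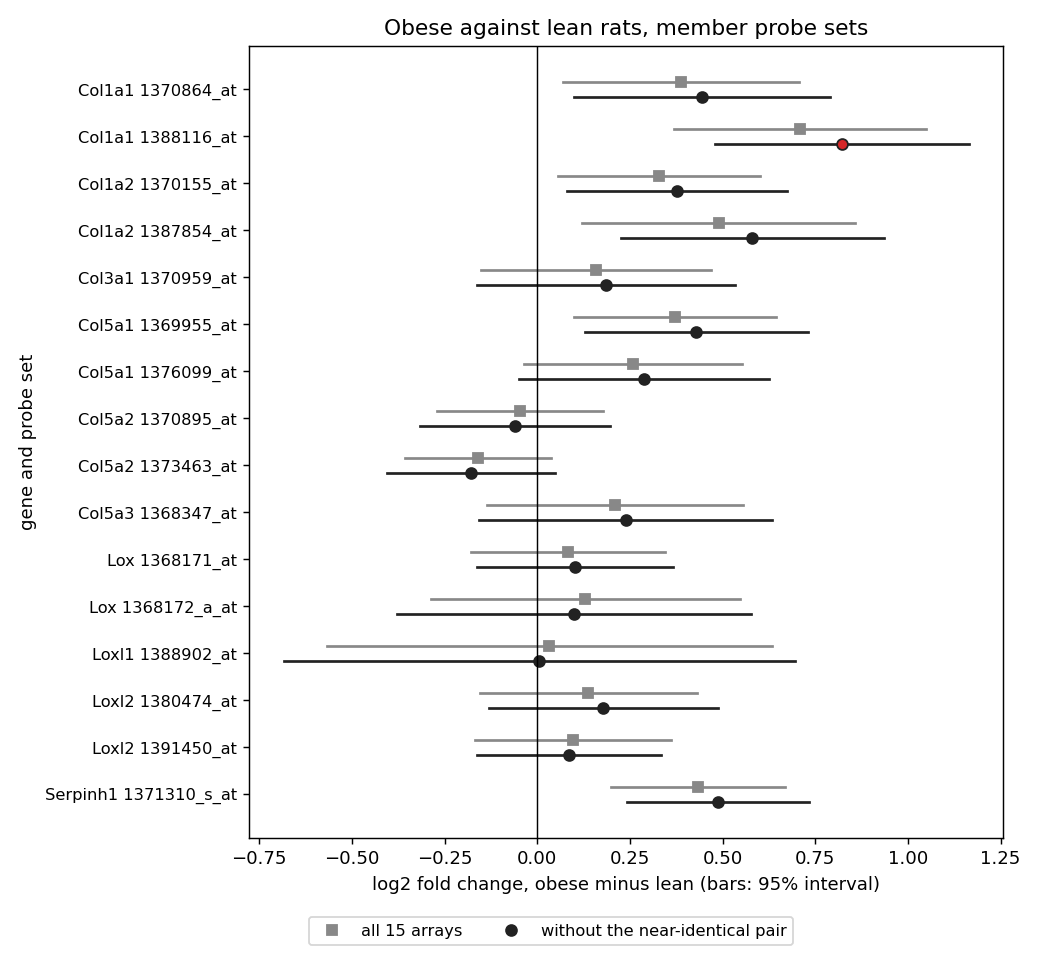
Log2 fold change, obese minus lean (x axis), of the 16 member probe sets tested (y axis), with all 15 arrays (grey squares) and without the near-identical pair (black circles); bars are 95% intervals and a red fill marks an adjusted p under 0.05. The single red point is Col1a1 1388116_at at 0.82 without the pair. The intervals of Col3a1, Col5a1 1376099_at, Col5a2, Col5a3 and every cross-linking enzyme cross 0.

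Type I collagen is the most abundant collagen of the body, and Col1a1 gives its larger share of chains. Without the pair, the signal of Col1a1 1388116_at had a lowest value of 17570, a median of 22471 and a highest of 33088 in 6 obese rats, and 9376, 13473 and 15926 in 7 lean rats. The groups did not overlap, obese rat 6 was the highest and lean rat 2 the lowest. The mean was 23085 ± 5420 (SD, n = 6) for obese and 12986 ± 2572 (SD, n = 7) for lean rats, a log2 fold change of 0.82 ± 0.16 (limma adjusted p = 0.0305). The near-identical arrays read 14084.5 for obese rat 1 and 13889 for lean rat 7, both within the lean range. Over all 15 arrays the log2 fold change was 0.71 ± 0.16 (limma adjusted p = 0.103), with 6 of 7 obese rats above all lean rats.

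This call is close to the threshold. Leaving out obese rat 1 alone gave 0.81 (limma adjusted p = 0.02), and leaving out lean rat 7 alone gave 0.72 (limma adjusted p = 0.0831). On 13 arrays the call was lost without any one of obese rats 5, 6, 7 and 8 and lean rats 2, 4 and 6, with fold changes from 0.71 to 0.87 and limma adjusted p from 0.0508 to 0.0644, within a range of 0.00941 to 0.185 over all alternatives.

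The second probe set of Col1a1, 1370864_at, gave a smaller difference. Its signal ran from 6917 through a median of 8326 to 12479 in 6 obese rats, and from 4903 through 5804 to 8360 in 7 lean rats. Here 3 of 6 obese rats lay above all lean rats, and obese rat 6 was again the highest. The log2 fold change was 0.44 ± 0.16 (limma adjusted p = 0.173) without the pair and 0.39 ± 0.15 (limma adjusted p = 0.237) with all 15 arrays. The 2 probe sets of this 1 gene thus read differences of unequal size, and the cause was not tested.

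Col1a2, the partner chain of Col1a1, had estimates above 0 by both of its probe sets. By the brighter, 1370155_at, the signal without the pair was 35494 at its lowest, 38653 at the median and 59190 at its highest in obese rats, against 26488, 32170 and 40104 in lean rats. The log2 fold change was 0.38 ± 0.14 (limma adjusted p = 0.178), and 3 of 6 obese rats lay above all lean rats. By the dimmer, 1387854_at, the signal was 10853, 14840 and 20580 in obese against 6320, 10464 and 12279 in lean rats, and the log2 fold change was 0.58 ± 0.17 (limma adjusted p = 0.1). Here 4 of 6 obese rats lay above all lean rats, so the groups overlapped for both probe sets. Over all 15 arrays the estimates were 0.33 and 0.49 (limma adjusted p = 0.24 and 0.202).

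Col3a1, the only chain of type III collagen, did not pass. Without the pair the signals of its probe set, 1370959_at, were 55661 at the lowest, 78551 at the median and 96286 at the highest in obese rats, and 51270, 62985 and 84775 in lean rats. The groups overlapped over most of their range, with obese rat 8 below 5 of the lean values and lean rats 3 and 4 above the obese median. The log2 fold change was 0.19 ± 0.16 (limma adjusted p = 0.588), with a 95% interval from -0.16 to 0.53. Over all 15 arrays it was 0.16 ± 0.15 (limma adjusted p = 0.634).

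None of the type V collagen chains passed. Col5a1, the chain present in most type V molecules, had signals of 8540, 11158 and 14361 (lowest, median, highest) in 6 obese and 6325, 8079 and 10394 in 7 lean rats by its brighter probe set, 1369955_at. The log2 fold change was 0.43 ± 0.14 (limma adjusted p = 0.139) without the pair and 0.37 ± 0.13 (limma adjusted p = 0.193) with all 15 arrays. Its second probe set, 1376099_at, gave 0.29 and 0.26 (limma adjusted p = 0.359 and 0.38). In both, obese rat 2 was the lowest of its group, and the groups overlapped.

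Col5a2, the other common type V chain and the gene next to Col3a1, had estimates below 0. By 1370895_at its signal was 18822, 20406 and 26403 in obese and 19230, 21758 and 27338 in lean rats without the pair. Lean rat 8 was the highest and obese rat 3 the lowest, over nearly the same range. The log2 fold change was -0.06 ± 0.12 (limma adjusted p = 0.83; 95% interval -0.32 to 0.20). Median centring of the arrays turned this sign, to 0.06 (limma adjusted p = 0.872). By 1373463_at the log2 fold change was -0.18 ± 0.11 (limma adjusted p = 0.398), and 1 of 6 obese rats lay above the lean median.

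Col5a3, a less common type V chain read by 1368347_at, ran from 13347 through 16238 to 28535 in obese rats and from 11608 through 13529 to 20916 in lean rats without the pair. Obese rat 3 alone lay above all lean rats. The log2 fold change was 0.24 ± 0.19 (limma adjusted p = 0.534), and without obese rat 3 it was 0.10 (limma adjusted p = 0.769).

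**Figure D2:**
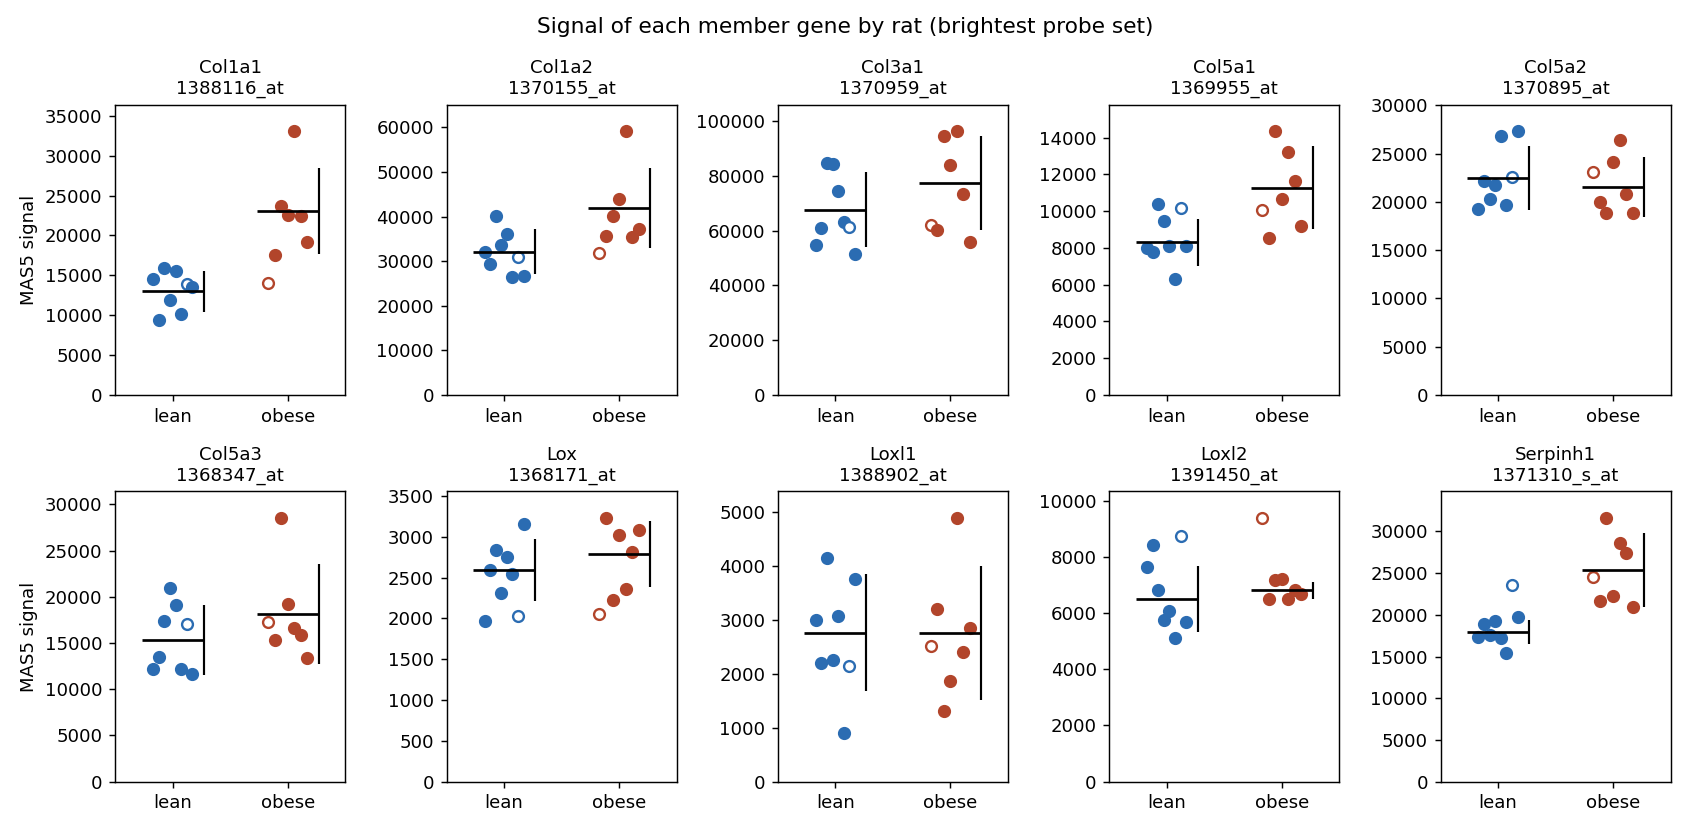
MAS5 signal (y axis, from 0) of the brightest probe set of each of the 10 genes in lean (blue) and obese (red) rats. Each point is 1 rat, open points are the near-identical arrays of lean rat 7 and obese rat 1, and the black line and bar are the mean and SD of the filled points. Filled points of the 2 groups do not overlap for Col1a1 and Serpinh1 and overlap for the other 8 genes.

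Serpinh1, the collagen chaperone, was the second member whose groups did not overlap without the pair, so that 2 of 16 member probe sets had obese rats all above lean rats, against 0.918% of all probe sets tested. The signal of 1371310_s_at was 20890, 24871 and 31637 (lowest, median, highest) in 6 obese rats and 15437, 17623 and 19745 in 7 lean rats. The mean was 25424 ± 4430 (SD, n = 6) against 17937 ± 1483 (SD, n = 7), a log2 fold change of 0.49 ± 0.12 (limma adjusted p = 0.0599), which missed the threshold. Over all 15 arrays it was 0.43 ± 0.11 (limma adjusted p = 0.108). The near-identical arrays both read high here, at 24585 for obese rat 1 and 23568 for lean rat 7, which is above all other lean rats. The threshold was passed under 4 of 23 alternatives without the pair: a larger pseudocount, the 60th percentile filter, median centring, and trend with robust variance (limma adjusted p from 0.0256 to 0.0427). By its suffix, this probe set may also read related transcripts, which was not tested.

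No cross-linking enzyme passed. Lox, the main lysyl oxidase, had signals of 2229, 2917 and 3234 in obese and 1975, 2595 and 3154 in lean rats by 1368171_at without the pair. Its log2 fold change was 0.10 ± 0.12 (limma adjusted p = 0.706; 95% interval -0.16 to 0.37). The dimmer Lox probe set, 1368172_a_at, gave 0.10 ± 0.22 (limma adjusted p = 0.853), with obese rat 3 far below the other obese rats. Under the 3 prime to 5 prime ratio of Gapdh as a covariate, 15 arrays gave -0.02 for each Lox probe set.

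Loxl1, the relative tied to elastic fibres, had the widest interval of the 16 probe sets. By 1388902_at its signal ran from 1319 through 2637 to 4901 in obese and from 909 through 3006 to 4146 in lean rats, and the log2 fold change was 0.0058 ± 0.32 (limma adjusted p = 0.996; 95% interval -0.68 to 0.70), an interval that holds the estimates of Serpinh1 and Col5a1. Obese rat 6 was the highest and lean rat 6 the lowest. Loxl2, a relative that also acts on basement membrane collagen, gave 0.09 ± 0.12 by 1391450_at and 0.18 ± 0.15 by 1380474_at (limma adjusted p = 0.74 and 0.553). By 1391450_at the 6 obese rats lay close together, from 6499 to 7196, inside the lean range of 5108 to 8413. Obese rat 1 and lean rat 7 read 9389 and 8737, the highest values of their groups.

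**Figure D3:**
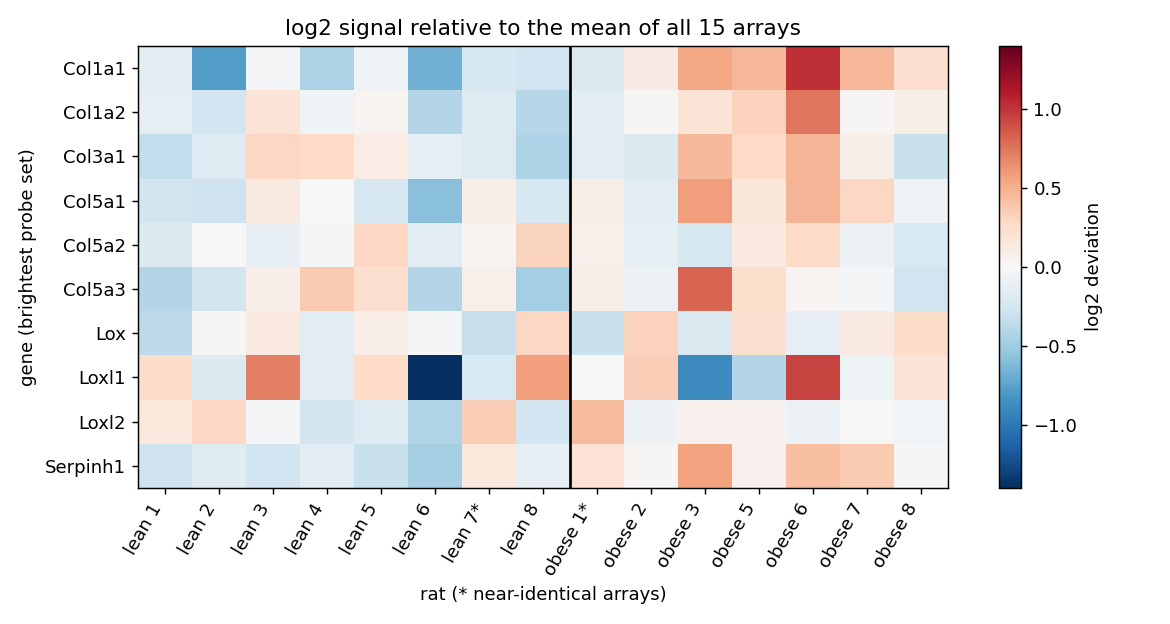
Log2 signal of each gene's brightest probe set (rows) in each rat (columns), relative to its mean over all 15 arrays; red is above and blue below the mean, and the line parts lean from obese rats. Obese rat 6 is the highest rat for 4 of the 10 genes and lean rat 6 is the lowest for 5, Loxl1 being the deepest blue.

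Rats within a group differed in the whole set. Obese rat 6 held the highest signal of 4 of the 10 genes and obese rat 3 of 3, and the mean deviation over the 10 genes from all 15 arrays was 0.42 and 0.19 on the log2 scale. In obese rats 2 and 8 that mean was 0.02 and -0.02. Lean rat 6 was below the mean for all 10 genes, was the lowest rat for 5 of them and had a mean deviation of -0.47. Among lean rats, rat 3 had the highest mean deviation, at 0.11, which is above that of obese rats 1, 2 and 8. Lean rat 6 also had the highest log2 ratio of 3 prime to 5 prime Gapdh signal, a measure that grows as RNA degrades, at 1.38, against 0.64 in obese rat 6. Some other rats followed this order, such as lean rat 2 (ratio 1.09, mean deviation -0.18) and obese rat 7 (0.51 and 0.12). Others did not. Lean rat 4 had a ratio of 1.35 with a mean deviation of -0.06, and obese rat 8 had the lowest ratio, 0.35, with -0.02. The part of this ratio in these values was not tested.

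Within 1 array, the signal of one gene relative to another does not depend on how that array was scaled, and 3 such differences were compared between groups by exact two-sided permutation tests. These were set up with the higher signal of Col1a1 already known, so they describe how far it stood apart from other members and are no independent support for it. Col1a1 minus Col1a2, the chains of type I collagen, was -0.86 ± 0.14 (SD, n = 6) for the obese and -1.31 ± 0.22 (SD, n = 7) for the lean group on the log2 scale without the pair, a shift of 0.45 (exact permutation p = 0.00233, adjusted over the 3 differences 0.00699). All 6 obese rats lay above the lean mean, but lean rat 8, at -0.98, lay within the obese range. Col3a1 minus Col1a1 was 1.74 ± 0.19 (SD, n = 6) against 2.37 ± 0.36 (SD, n = 7), a shift of -0.64 (exact permutation p = 0.00524, adjusted 0.00787). Lox minus Col1a1 was -2.99 ± 0.50 (SD, n = 6) against -2.28 ± 0.35 (SD, n = 7), a shift of -0.72 (exact permutation p = 0.00991, adjusted 0.00991). For the last 2 differences, all 6 obese rats lay below the lean mean. Over all 15 arrays the shifts were 0.38, -0.55 and -0.63 (exact permutation adjusted p = 0.00723, 0.00723 and 0.0101).

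These shifts rested on the probe set that stood for Col1a1. With the dimmer probe set, 1370864_at, in its place, a comparison added after seeing the data, the shifts without the pair were 0.07, -0.26 and -0.34 (exact permutation adjusted p = 0.414, 0.194 and 0.194), and none passed. With the mean over each gene's probe sets they were 0.15, -0.45 and -0.53 (exact permutation adjusted p = 0.0723, 0.042 and 0.0723), and Col3a1 minus Col1a1 alone passed.

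**Figure D4:**
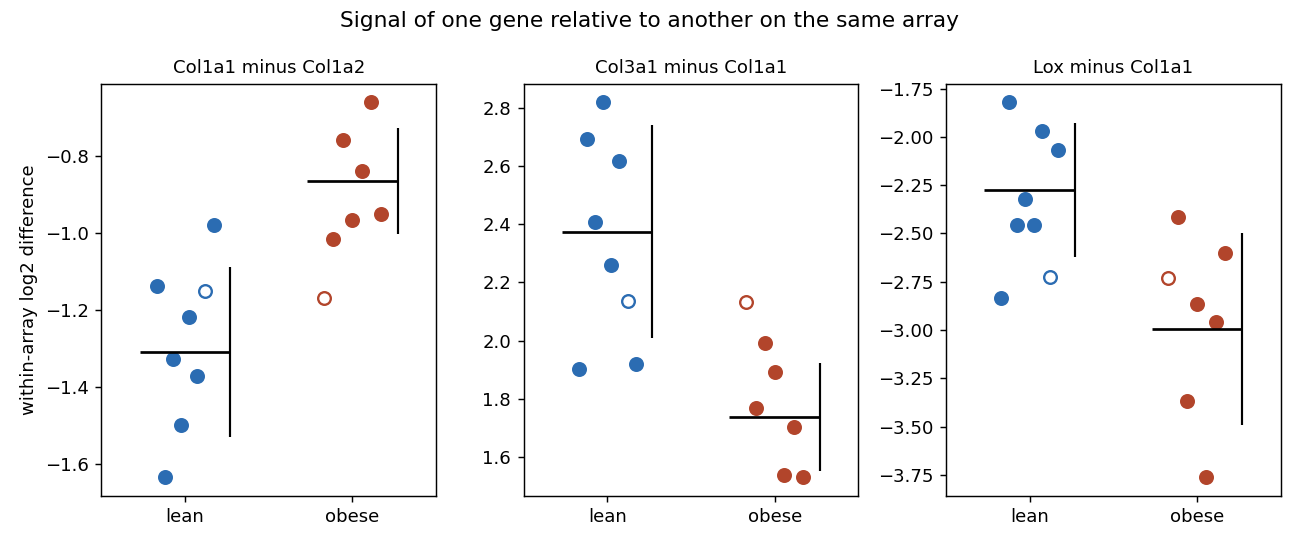
Log2 signal of one gene minus another on the same array (y axis) for 3 pairs of genes, in lean (blue) and obese (red) rats. Each point is 1 rat, open points are the near-identical arrays, and the black line and bar are the mean and SD of the filled points; with Col1a1 read by 1388116_at, the obese mean is 0.45 above the lean mean on the left, and 0.64 and 0.72 below it in the middle and on the right.

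Genes that modify, process and bind fibrillar collagen were read from 5 lists by their brightest probe sets. Without the pair 1 of 50 genes tested, Postn, rose, against 0.725% of all probe sets. Periostin (Postn), a secreted protein that binds collagen and helps cross-linking, had signals of 19709, 23282 and 36251 (lowest, median, highest) in 6 obese and 6560, 13771 and 18878 in 7 lean rats. The groups did not overlap. Its log2 fold change was 0.98 ± 0.22 (limma adjusted p = 0.0476), and with all 15 arrays 0.85 ± 0.21 (limma adjusted p = 0.105). From the 13 arrays, the call held when obese rat 3 or lean rat 3 was left out and was lost when any other 1 rat was left out (limma adjusted p from 0.053 to 0.118). In its list of fibril-associated proteoglycans, collagens and glycoproteins, 17 of 22 listed genes were tested, 8 had estimates above 0 and the median without the pair was -0.01.

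Among prolyl and lysyl hydroxylases and collagen folding proteins, 0 of 15 genes tested passed, and the median without the pair was 0.0025. Ppib (cyclophilin B), which speeds the folding of collagen chains, had 0.30 ± 0.09, and Plod1, a lysyl hydroxylase, had 0.31 ± 0.10 (limma adjusted p = 0.12 and 0.146). P4ha3, a subunit of prolyl 4-hydroxylase, had -0.55 ± 0.16 (limma adjusted p = 0.0991). Of 8 genes for removal of procollagen propeptides, 2 were tested and 0 passed: the protease Bmp1 had 0.15 ± 0.15 and its enhancer Pcolce 0.50 ± 0.14 (limma adjusted p = 0.645 and 0.0909). Pcolce passed with the Gapdh ratio as a covariate, at 0.74 (limma adjusted p = 0.0457), and with median centring, at 0.62 (limma adjusted p = 0.0285).

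Elastic fibre proteins and other cross-linking enzymes had 0 of 11 genes passing and a median of 0.04 without the pair. Mfap2, a microfibril protein, had 0.33 ± 0.12, the transglutaminase Tgm2 0.17 ± 0.13 and Efemp1, a fibulin, -0.23 ± 0.15 (limma adjusted p = 0.187, 0.537 and 0.446). Of 10 collagen receptors, 5 were tested and 0 passed, with a median of 0.09. The integrin chains Itgb1 and Itga1 had -0.20 ± 0.12 and 0.34 ± 0.37, and the receptor kinase Ddr1 0.09 ± 0.12 (limma adjusted p = 0.432, 0.679 and 0.733). With all 15 arrays 0 genes of these 5 lists passed.

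Of the marker lists for cell types, only that of macrophages held genes that passed, and only without the pair. In whole tissue, more cells of a type and more RNA per cell cannot be told apart, nor can fewer cells and less RNA per cell. Without the pair, 4 of 15 macrophage markers tested rose (Gpnmb, Lgals3, Laptm5 and Cd68), against 0.725% of all probe sets, and the summed signal of these 15 was 205914 to 400540 in obese against 128372 to 190142 in lean rats. With all 15 arrays, limma passed 0 of the 15. Fibroblast and progenitor markers had 0 of 8 passing and summed to 95696 to 143343 in obese and 91535 to 119657 in lean rats. Fat cell markers had 0 of 8 passing, 4 with estimates above 0 and a median of -0.02. Markers of smooth muscle and pericytes (0 of 6 passing), endothelium (0 of 5), mesothelium (0 of 8) and mast cells (0 of 4) had medians of -0.10, -0.05, -0.32 and -0.21. Of 6 markers of epididymal epithelium 1 was on the array, below the filter. The part of these cells in the collagen signals was not tested.

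The log2 ratio of 3 prime to 5 prime Gapdh signal was 0.72 ± 0.28 (SD, n = 6) for the obese and 1.05 ± 0.28 (SD, n = 7) for the lean group (exact two-sided permutation p = 0.0589). With that ratio as a covariate, the log2 fold change of Col1a1 1388116_at was 0.75 (limma adjusted p = 0.139) and that of Serpinh1 1371310_s_at 0.48 (limma adjusted p = 0.174) without the pair. Some other members moved more, in both directions. Col3a1 had 0.40, Col5a3 0.49 and Loxl1 -0.52 under the covariate (limma adjusted p = 0.313, 0.28 and 0.47). Without the covariate they had 0.19, 0.24 and 0.0058.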

How the data were processed

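The authors deposited intensity values, MAS5 signals on a linear scale, per the submitters' processing notes; the MAS5 version is not given in the sources used here. Their equal trimmed means show a common scaling. MAS5 uses mismatch probes, which makes dim signals noisy. Of 31099 probe sets, 57 controls were left out. Genes were named from the platform annotation: 20826 probe sets had 1 gene and 436 several, and the Entrez IDs of 20758 were found in RefSeq's GRCr8 table.

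To each signal 80.2 was added, the 10th percentile, and the log2 taken, a step that understates changes of dim genes. A probe set was kept if its mean exceeded the 40th percentile; both limits were set on all 15 arrays and used for 13 too. limma 3.58.1 (lmFit, eBayes; R 4.3.3) compared the groups, with Benjamini-Hochberg adjustment over the 18625 probe sets kept. This step was first tested on simulated data. The 3 within-array differences had exact permutation tests. A gene was read by its brightest probe set.

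Every member probe set is named. From each pathway list the text names the genes that passed in either comparison, or else up to 3 with the smallest p on 13 arrays, and from marker lists up to 2 of the brightest, as levels. The 4 macrophage markers that rose were named after their values were seen. The members and lists were chosen with earlier results of these data known. The labels present each rat as a separate animal. Alternatives were other pseudocounts, filters, scalings, array weights and variance models, the Gapdh ratio, the rat number as a block, each rat left out, and other probe sets for a gene. Plots came from matplotlib 3.10.9 (Python 3.11.15).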

Additional observations from a re-analysis of the deposited data

Results flagged for a closer look

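Within the groups of all 15 arrays, 40 sets of values (17 member probe sets and 3 within-array differences in each group) were searched for a rat whose gap to its nearest neighbour took up most of the group's range. Chance marks about 1 in 20 such sets, and 3 were found. By Lox 1368172_a_at, obese rat 3 had a log2 signal of 9.17, against 10.20 to 10.91 in the other obese rats. By Loxl1 1388902_at, lean rat 6 had 9.95, against 11.13 to 12.05 in the other lean rats. By Loxl2 1391450_at, obese rat 1 had 13.21, against 12.68 to 12.83 in the other obese rats; its array is the one close to identical with that of lean rat 7.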

How the results depend on the processing

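With all 15 arrays, 0 members passed under every alternative except leaving out 1 rat, where the count was 0 to 1 (1 without obese rat 1), and 0 pathway genes passed under all 26. With 13 arrays, where 1 member passed, 2 passed with the 25th percentile as pseudocount, the 60th percentile filter, median centring or trend with robust variance, 0 with no filter or the Gapdh ratio, and 0 to 1 when 1 rat was left out. The pathway count, 1, became 0 with a pseudocount of 1, no filter or quantile normalization, 3 with median centring, and 0 to 1 when 1 rat was left out; under the Gapdh ratio it was 1, Pcolce in place of Postn. The deviations of each rat from its group's mean were correlated between the obese and the lean rat that share a number. The correlation was -0.11 to 0.24 over 7 numbers, 2 of them over 0.1. For 1 number the obese rat correlated best with the lean rat of its own number. No consistent pairing by number was thus seen, but this check cannot exclude a pairing. With the number as a replicate block, 0 members and 0 pathway genes passed on 13 arrays, and Col1a1 1388116_at had 0.84 (limma adjusted p = 0.185).

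The within-array shifts kept their direction under every alternative run for them, 19 with 15 arrays and 17 with 13. These were fewer than the 25 and 23 run for the member probe sets, and left out the Gapdh ratio and the block. Under the Gapdh ratio on 13 arrays, Col1a1 1388116_at had 0.75 and Col1a2 1370155_at 0.42, against 0.82 and 0.38 without it. Col3a1 had 0.40 and Lox 1368171_at 0.0077, against 0.19 and 0.10. How far the within-array shifts change under that ratio was not tested. When each gene was read by the mean of its probe sets, Col1a1 minus Col1a2 was 0.14 (15 arrays) and 0.15 (13), and Lox minus Col1a1 -0.44 and -0.53, none past the threshold. With the dimmer Col1a1 probe set they were 0.060 and 0.067, and -0.30 and -0.34, and Col3a1 minus Col1a1 -0.23 and -0.26. With the brightest probe sets, leaving out 1 rat changed none of the calls.

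Estimates that changed sign were all far from the threshold, and the cause was not tested. Col5a2 1370895_at became 0.055 with median centring on 15 and on 13 arrays. Under the Gapdh ratio, 15 arrays gave -0.019 for Lox 1368171_at, -0.022 for 1368172_a_at, -0.35 for Loxl1 and -0.014 for Itga1, and 13 arrays -0.13 for 1368172_a_at and -0.52 for Loxl1. Under the block, 13 arrays gave -0.0053 for Lox 1368171_at, -0.033 for 1368172_a_at and -0.065 for Itga1. Loxl1 was -0.011 with quantile normalization on 13 arrays, and with 1 rat left out it ran from -0.16 to 0.18 (15 arrays) and -0.23 to 0.19 (13), while Lox 1368172_a_at ran from -0.030 to 0.32 (13). The signal of dim probe sets lies near the background, but not all of these probe sets were dim. On 13 arrays Col5a2 1370895_at read 18822 to 26403 in obese rats. The number of rats limits what can be seen, most of all for Loxl1, whose interval is the widest.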
